A study of Mus musculus with 1 sample.

Results

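Aminoacyl-tRNA synthetases are the enzymes that load each amino acid onto its tRNAs, and the poly(A) tails of their mRNAs were examined in wild-type mouse epiblast-like cells. The members were taken by name. The list held 36 nuclear genes, of which 20 encode cytosolic enzymes or their subunits and 16, with names ending in 2, encode mitochondrial enzymes. Transcripts were found for 35 of them, and 33 had at least 10 transcripts, the number set for a gene value. They stood among 12816 nuclear genes with transcripts, of which 7146 reached that number. Wars2, the mitochondrial tryptophan enzyme, had 0 transcripts at any number of sequencing passes, and Mars2 and Nars2, for methionine and asparagine, had 9 and 6 and were given no comparison.

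The study followed the exit of embryonic stem cells (ESCs) from naïve pluripotency and asked how the deadenylase Cnot8 acts in it. One sample was analysed here, from wild-type cells of the ICR strain at 24 h of differentiation from ESCs into epiblast-like cells (24h-EpiLCs) in N2B27 medium with activin A, bFGF and knockout serum replacement (KSR), and Cnot8-deficient cells were not analysed here. It was measured by PAIso-seq, which copies mRNAs together with their tails into circular cDNA and reads each circle repeatedly on the PacBio platform. The sample held 2 replicates marked by barcodes. The labels do not say whether these were separate cultures or which barcode was which replicate, so replicates 1 and 2 were numbered by barcode and their spread may be technical.

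Synthetases read the genetic code at the step before the ribosome, since a tRNA that carries the wrong amino acid puts it into proteins. The cytosol and the mitochondrion mostly use separate enzymes for one amino acid, and both kinds are encoded in the nucleus. Tails are added in the nucleus, bound by poly(A)-binding proteins and trimmed in the cytoplasm by deadenylases such as the CCR4-NOT complex.

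The tails of 5 synthetase genes are printed here 5′ to 3′ as read in single transcripts, to show what a gene value of this assay stands for. Each of the first 4 was the tail nearest the median of its gene among reads of at least 15 passes. They stand for the cytosolic genes with the longest and the shortest tails and then for the mitochondrial genes with the longest and the shortest tails. These were taken among genes with at least 30 transcripts other than Hars, Lars and Nars, which are not shown. The fifth tail, read in 11 passes, was the longest of at most 60 nt that ended in at least 2 T. The sixth, chosen after the values were seen, had a T as its first base. Bases other than A are in capitals, and T in the cDNA stands for U in the mRNA.
Kars, 96 nt, replicate 2: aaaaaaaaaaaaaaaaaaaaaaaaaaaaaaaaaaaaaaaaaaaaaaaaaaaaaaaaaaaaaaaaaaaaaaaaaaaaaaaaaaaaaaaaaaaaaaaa
Yars, 85 nt, replicate 2: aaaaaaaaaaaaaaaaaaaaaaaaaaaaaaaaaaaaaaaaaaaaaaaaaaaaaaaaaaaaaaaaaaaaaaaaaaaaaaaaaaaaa
Rars2, 93 nt, replicate 2: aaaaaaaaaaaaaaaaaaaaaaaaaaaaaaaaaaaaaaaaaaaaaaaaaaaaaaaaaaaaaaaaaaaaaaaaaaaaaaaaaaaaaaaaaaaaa
Lars2, 1 nt, replicate 2: a
Tars, 37 nt, replicate 1: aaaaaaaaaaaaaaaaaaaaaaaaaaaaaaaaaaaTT
Kars, 93 nt, replicate 2: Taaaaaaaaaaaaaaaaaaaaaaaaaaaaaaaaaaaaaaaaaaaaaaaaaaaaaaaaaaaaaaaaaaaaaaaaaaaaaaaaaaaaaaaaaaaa

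Replicate 1 gave 246316 transcripts of nuclear genes read in at least 7 passes and replicate 2 gave 455660. The synthetases took 1862 and 3523 of them, or 0.767% of the pooled transcripts, with a median of 32 and 34 passes. A gene with no transcript could have made up to 0.000427% of the pooled nuclear transcripts, the share that 3 counts would be. The markers of the labelled state were read, with 303 transcripts of Pou5f1 and 85 of Sox2, which both states share, and 299 of Dnmt3b, 160 of Otx2, 62 of Pou3f1, 44 of Lef1 and 37 of Fgf5, of the formative state. Of the naïve genes, Zfp42 still had 501 and Esrrb 40, whereas Nanog had 10 and Klf4 1. The tail length of a gene is given as the geometric mean over its transcripts, non-A bases included. The reads carried no molecular identifiers, so every interval below is a 95% interval for counting error only.

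The mRNAs of the cytosolic synthetases carried tails of about the length usual in these cells, and they lay close together. Over the 20 genes, the median gene tail stood at 79.05 nt in replicate 1 and at 77.09 nt in replicate 2 (78.1 ± 1.39 nt, SD, n = 2), and 76.42 nt with the replicates pooled. All 7146 nuclear genes had medians of 77.99 and 76.77 nt and a pooled median of 76.38 nt, so the class differed from all genes by less than the SD of its own replicates. Gene values ran from 68.4 nt for Yars to 91.9 nt for Hars, and 19 of 20 lay between the quartiles of all genes, 62.4 and 88.6 nt. The middle of the class, between its own quartiles, spanned 74.2 to 82.5 nt. Over the 2784 nuclear genes with the same range of depth, 47 to 442 transcripts, the quartiles were 65.3 and 87.2 nt. The single transcripts of the class were spread as widely as those of other genes, with quartiles of 55 and 129 nt beside 54 and 132 nt.

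Of the 20 cytosolic genes, 4 had an interval wholly above the median of all genes, beside 21.2% of the 7146 genes by the same rule. None of the 20 lay wholly below it, beside 17.3% of all genes. The first share is close to its background and is not read as a property of the class. The 7146 genes had a median of 37 transcripts beside 212 in the cytosolic class, and intervals narrow with depth. Neither share is thus set against genes of like depth, for which no share was computed. The 4 genes were Hars, Kars, Mars1 and Lars, and in each of them both replicates were over the median of all genes.

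**Figure D1:**
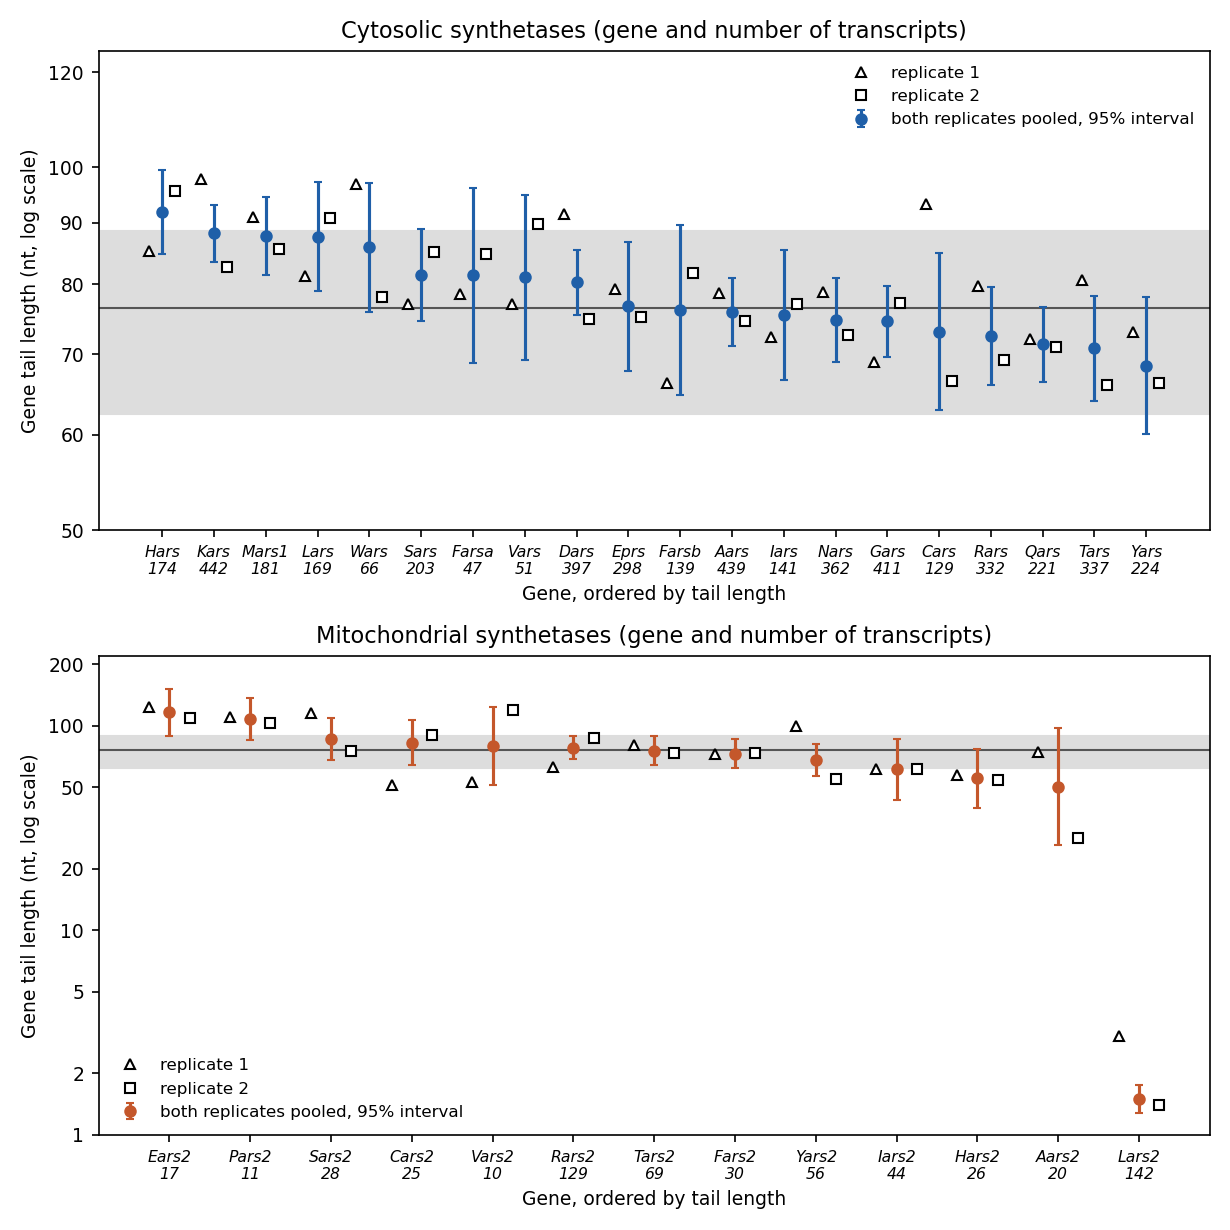
Gene tail length in nt on a log axis for 20 cytosolic (top) and 13 mitochondrial (bottom) synthetases, with the number of transcripts under each gene. Filled points are both replicates pooled with a 95% interval for counting error, triangles and squares are replicates 1 and 2, the line is the median of 7146 nuclear genes (76.4 nt) and the grey band their quartiles (62.4 to 88.6 nt). The cytosolic genes lie between 68.4 and 91.9 nt, and Lars2, at 1.50 nt, lies far below all other members.

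In mammals part of the cytosolic enzymes are held together in the multi-synthetase complex, here Eprs, Iars, Lars, Mars1, Qars, Rars, Kars and Dars. Kars (ENSMUSG00000031948, GRCm38 chromosome 8, 111993443 to 112011323), the lysine enzyme, which serves the cytosol and the mitochondrion from 1 gene, had 170 and 272 transcripts, the most of any member with the replicates pooled. It had a gene tail of 97.8 nt in replicate 1, of 82.6 nt in replicate 2 and, pooled, of 88.2 nt with an interval of 83.5 to 93.0 nt. Mars1 (chromosome 10, 127296221 to 127311786), the methionine enzyme that also charges the initiator tRNA, had 90.99 and 85.53 nt over 72 and 109 transcripts. Both genes were thus over the median of all genes in each replicate, and for Kars the replicates differed by more than counting error. Lars, the leucine enzyme, had 81.3 and 90.7 nt over 54 and 115 transcripts, and its pooled interval was 79.0 to 97.2 nt.

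Dars, the aspartate enzyme, had 91.5 nt over 138 transcripts in replicate 1 and 74.9 nt over 259 in replicate 2, one on each side of the median of all genes. Eprs, which joins the glutamate and proline activities in one protein, had 79.3 and 75.1 nt. The median single tail of Eprs was longer, at 103 nt, and 181 of its 298 tails were over 90 nt. The gene value of Eprs was thus set in part by 13 tails of 1 to 5 nt. With tails under 6 nt left out it was 93.5 nt, beside a median of 81.2 nt for all genes treated the same way.

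Qars (chromosome 9, 108507706 to 108515941), the glutamine enzyme, was the member of the complex with the shortest gene tail. It had 72.1 nt over 62 transcripts and 71.0 nt over 159, the closest pair of replicates among the cytosolic genes, with none of its 221 tails at 1 to 5 nt and 80 over 90 nt. Its median single tail, 71 nt, was also the lowest of the cytosolic genes. Rars, for arginine, and Iars, for isoleucine, had 72.4 nt and 75.4 nt pooled with intervals that held the median of all genes.

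As a group the 8 genes of the complex did not stand apart from the 12 other cytosolic genes. The median gene tail was 80.5 against 78.6 nt in replicate 1 and 76.1 against 77.6 nt in replicate 2. The difference was 1.91 nt in one replicate and −1.56 nt in the other (0.173 ± 2.46 nt, SD, n = 2), so its direction was not the same in both. The split by structural fold was also made within the cytosolic class. Class I enzymes, with a Rossmann-fold catalytic domain, minus class II enzymes differed by 0.954 and −2.50 nt in median gene tail. The pooled difference was −2.82 nt (9 and 10 genes). Eprs, which has both folds, was left out of this split.

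Among the enzymes outside the complex, Hars had the longest gene tail of the cytosolic class. This histidine enzyme had 85.2 nt over 60 transcripts in replicate 1 and 95.7 nt over 114 in replicate 2, 91.9 nt pooled with an interval of 84.8 to 99.6 nt. None of its 174 tails was of 1 to 5 nt, and 107, or 61.5%, were over 90 nt. Wars, for tryptophan, had 96.9 and 78.0 nt over only 29 and 37 transcripts, and its pooled interval, 75.9 to 97.0 nt, held the median of all genes. Farsa and Farsb encode the 2 kinds of subunit of one phenylalanine enzyme, and their gene tails were 81.4 nt (68.8 to 96.2 nt) and 76.1 nt (64.7 to 89.6 nt). The values of these subunits were not told apart.

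The other end of the class was held by Yars and Tars. Yars (chromosome 4, 129189760 to 129219607), the tyrosine enzyme, had 73.0 nt over 76 transcripts and 66.2 nt over 148, with a pooled interval of 60.05 to 78.0 nt. Tars (chromosome 15, 11382301 to 11399665), the threonine enzyme, had 80.7 nt over 118 and 66.0 nt over 219, with a pooled interval of 64.05 to 78.22 nt. Both intervals held the median of all genes, and in both genes a few very short tails weighed on the value, 8 of 224 in Yars and 9 of 337 in Tars. With tails under 6 nt left out the values were 80.03 and 79.56 nt, beside a median of 81.2 nt for all genes treated the same way.

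The remaining genes read deeply were Aars, Gars and Nars, for alanine, glycine and asparagine. Aars had 78.6 nt over 144 transcripts and 74.6 nt over 295. Gars, the second gene that serves both compartments, had 68.9 nt over 128 and 77.2 nt over 283. Nars had 78.8 nt over 127 and 72.6 nt over 235. All 3 pooled values, 75.9, 74.5 and 74.7 nt, lay within 2 nt of the median of all genes, and their intervals held it. Cars, Sars and Vars, for cysteine, serine and valine, had pooled gene tails of 73.1, 81.4 and 81.1 nt with intervals that held it too.

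The order of the cytosolic genes was not stable between the replicates. Replicate 1 was the longer one in 12 genes and replicate 2 in 8. For 4 of 20 genes, Cars, Dars, Kars and Tars, the interval of the ratio of the replicates left out 1, beside 12.3% of the 4286 nuclear genes for which both replicates reached 10 transcripts. In all 4 the tail was shorter in replicate 2, with ratios of 0.713, 0.819, 0.845 and 0.818. The background of 12.3% was likewise not taken over genes of like depth. Spearman's rho between the replicates was 0.0812 over the 20 genes, and 0.536 over the 4286 genes, where values range more widely. Neighbours in the plot of gene tails were thus not told apart, and rho is given as a description, since the genes share 2 libraries.

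The mitochondrial synthetases were read far less deeply, with 622 transcripts in 15 genes beside 4763 in the 20 cytosolic genes. Over the 13 genes with a value, the median gene tail was 75.62 nt pooled, close to the cytosolic class. The replicates gave 67.65 nt over 8 genes and 73.6 nt over 9 genes (70.6 ± 4.21 nt, SD, n = 2), for which different genes reached 10 transcripts. The cytosolic class was higher by 11.4 nt in replicate 1, by 3.49 nt in replicate 2 and by 0.803 nt pooled. The difference, 7.44 ± 5.59 nt over the replicates, kept its direction, but its pooled value was smaller than the spread. Without Lars2 it was 6.60, 3.45 and −0.480 nt, so the pooled direction turned.

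Within the class 2 genes lay wholly above the median of all genes, Ears2 and Pars2, 1 lay wholly below it, Lars2, and 10 were not told apart from it. Neither count was above the background of 21.2% and 17.3% of all genes. Ears2 (chromosome 7, 122037213 to 122067263), the glutamate enzyme, had 124 nt over 8 transcripts and 109 nt over 9, with a pooled interval of 88.7 to 152 nt. Pars2 (chromosome 4, 106651069 to 106655282), the proline enzyme, had 111 nt over 7 and 103 nt over 4, with a pooled interval of 84.9 to 137 nt. Both were over the median in each replicate, but on 17 and 11 transcripts. Sars2, for serine, came next with 115 nt over 9 transcripts and 74.9 nt over 19, and its interval, 67.7 to 109 nt, held the median of all genes.

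By structural fold, the median of the mitochondrial class I genes minus that of the class II genes was −11.0 nt in replicate 1 (4 and 4 genes) and −12.4 nt in replicate 2 (5 and 4 genes), but 3.82 nt pooled (7 and 6 genes). Without Lars2, a class I gene, the differences were −10.5, 0.404 and 4.47 nt, so the direction in replicate 2 turned.

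The shortest values beside Lars2 were those of Aars2, Hars2 and Iars2. Aars2, the alanine enzyme, had 74.2 nt over 12 transcripts and 28.3 nt over 8, with an interval of 26.1 to 97.3 nt, and 2 of its 20 tails were of 1 to 5 nt. With these left out it had 78.0 nt, more than 1.5 times its value. The median of all genes with tails under 6 nt left out was 81.2 nt. Hars2, the histidine enzyme, had 57.1 nt over 10 and 54.1 nt over 16 transcripts, alike in both replicates, and its interval of 39.5 to 77.1 nt just held the median of all genes. Iars2, the isoleucine enzyme, had 61.7 and 61.2 nt, but its median single tail was 103.5 nt and 5 of its 44 tails were of 1 to 5 nt.

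Rars2, Tars2 and Yars2 had the most transcripts of the class after Lars2. Rars2 (chromosome 4, 34614957 to 34660167), the arginine enzyme, had 62.9 nt over 42 transcripts and 86.9 nt over 87. Yars2, the tyrosine enzyme, moved the other way, with 99.6 nt over 20 and 54.8 nt over 36. Of the 7 genes with at least 10 transcripts in both, these 2 had replicates that differed by more than counting error, beside 12.3% of nuclear genes by that rule. Tars2, the threonine enzyme, had 80.1 nt over 22 transcripts and 73.6 nt over 47. Cars2, Fars2 and Vars2, for cysteine, phenylalanine and valine, had pooled gene tails of 82.6, 73.1 and 79.5 nt on 25, 30 and 10 transcripts, and the 3 intervals held the median of all genes.

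Lars2, the mitochondrial leucine enzyme (ENSMUSG00000035202, chromosome 9, 123366927 to 123462666), was unlike every other member. It had 12 transcripts in replicate 1 and 130 in replicate 2, with gene tails of 3.05 and 1.40 nt, and 1.50 nt pooled (1.28 to 1.75 nt). Of the 142 tails, 134 were of 1 to 5 nt, 10 of 12 in replicate 1 and 124 of 130 in replicate 2. The pooled share was 94.4% with a Wilson interval of 89.3 to 97.1%. A single A made up 99 tails and 2 A made up 30, as in the printed tail. The gene was the second from the shortest of all 7146 genes, after the noncoding RNA Gm42418, and one of 33 genes, 0.462%, with at least 50% of their tails at 1 to 5 nt.

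The other 8 Lars2 tails were of 7, 8, 43, 50, 75, 95, 141 and 193 nt, with a median of 62.5 nt. The 43 and 95 nt tails came from replicate 1. The 142 reads came from 142 distinct sequencing wells, so they were not repeats of one read. Copies of one molecule made when the cDNA was amplified could not be told apart from separate molecules. The median was 65 passes, beside 33 over all synthetase reads. The deposited table gives no position within the gene, so whether these reads end at the annotated 3′ end of Lars2 or inside the gene was not tested. Depth moved with the replicate, since Lars2 made up 6.59% of the mitochondrial class in replicate 1 and 29.5% in replicate 2, whereas the class as a whole had 182 and 440 transcripts.

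**Figure D2:**
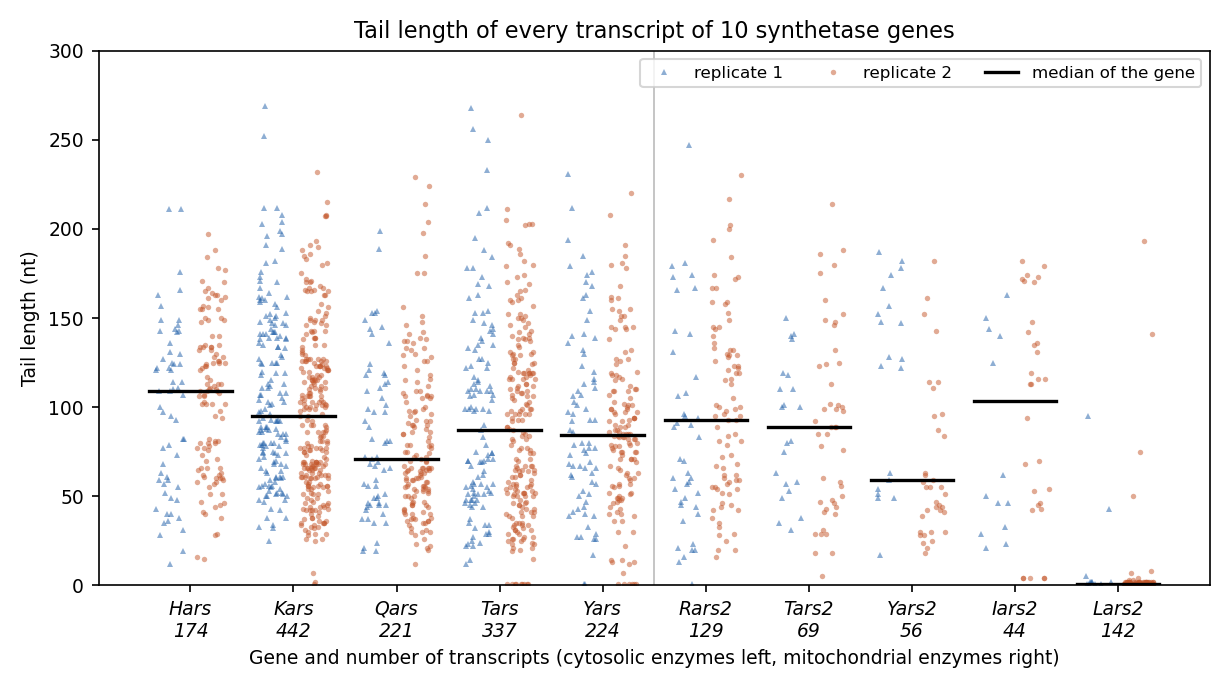
Tail length in nt of every transcript of 10 synthetase genes, with triangles for replicate 1, circles for replicate 2, a bar for the median of the gene and the number of transcripts under its name. The cytosolic genes are the 2 with the longest and the 3 with the shortest gene tails and the mitochondrial genes the 5 with the most transcripts. In all 10 genes the longest tails are over 150 nt, but most of those of Lars2 lie at the bottom, with 134 of 142 at 1 to 5 nt and the longest at 193 nt.

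One gene thus set most of what separated the compartments at the level of single transcripts. The median single tail was 88 and 90 nt in the cytosolic class and 73 and 55 nt in the mitochondrial class in replicates 1 and 2. Without Lars2 the mitochondrial class had 81 and 87.5 nt, still under the cytosolic class in both replicates. Lars2 gave 134 of the 143 mitochondrial tails of 1 to 5 nt, and the other 9 made up 1.88% of the class without it, beside 1.32% in the cytosolic class and 2.32% over all nuclear transcripts. The last share still holds Lars2 and also Gm42418, which had 98.1% of its 3100 tails at 1 to 5 nt. The share of tails over 90 nt was 49.1% in the cytosolic class (47.7 to 50.5%), 37.3% in the mitochondrial class (33.6 to 41.2%) and 47.7% in that class without Lars2 (43.3 to 52.2%). All nuclear transcripts had 50.6%.

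**Figure D3:**
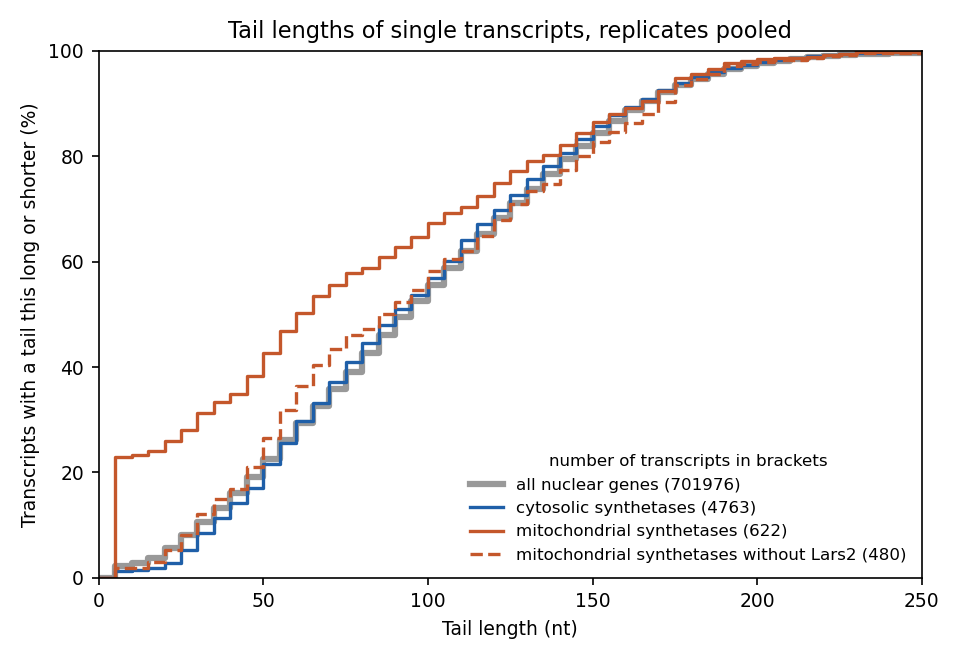
Percent of transcripts with a tail of a given length in nt or shorter, for 4763 transcripts of cytosolic synthetases, 622 of mitochondrial synthetases, the 480 of these without Lars2 and 701976 of all nuclear genes, replicates pooled and counted in steps of 5 nt. The mitochondrial curve starts at 23.0% at 5 nt. Without Lars2 it still lies above the other 2 at 60 nt, at 36.5% beside 29.8% (cytosolic) and 29.4% (all nuclear genes). At 90 nt it is nearer to them, with 47.7% over 90 nt beside 49.1% and 50.6%.

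Enzymes for the same amino acid were next set side by side, since each pair differs in the compartment that its protein serves. There were 14 such pairs with gene values, Eprs standing against both Ears2 and Pars2, and Farsa and Farsb both against Fars2. The cytosolic gene had the longer tail in 8 pairs and the mitochondrial gene in 6. In 10 pairs the interval of the ratio held 1, and in 7 of 14 the replicates fell on opposite sides of 1. Replicate ratios were taken at any depth, down to 4 transcripts for Cars2 in replicate 1 and for Pars2 in replicate 2. Compartment thus gave no common direction.

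The pairs whose interval left out 1 went both ways. Lars had a tail 58.4 times as long as that of Lars2 (48.4 to 70.5), with ratios of 26.6 and 64.6 in the replicates. Hars had 1.67 times the tail of Hars2 (1.18 to 2.35), with 1.49 and 1.77. The annotated 5′ ends of Hars and Hars2 overlap on opposite strands, and whether reads were counted by strand is not given in the sources used here, so reads of the overlap could have gone to either gene. In the opposite direction, Eprs had 0.661 times the tail of Ears2 (0.492 to 0.888) and 0.712 times that of Pars2 (0.544 to 0.931), with replicate ratios of 0.640 and 0.687 and of 0.717 and 0.729. These last pairs share Eprs and rest on the 17 and 11 mitochondrial transcripts.

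The closest pairs were Yars with Yars2, at 1.01 (0.808 to 1.26), and Vars with Vars2, at 1.02 (0.639 to 1.63). Their replicates nevertheless pointed in opposite directions, with 0.732 and 1.21 for the tyrosine pair and 1.45 and 0.754 for the valine pair. The valine ratios rest on 5 Vars2 transcripts in each replicate. The intervals leave room for differences of a size seen elsewhere in the list, and a ratio near 1 does not show that the tails were equal.

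**Figure D4:**
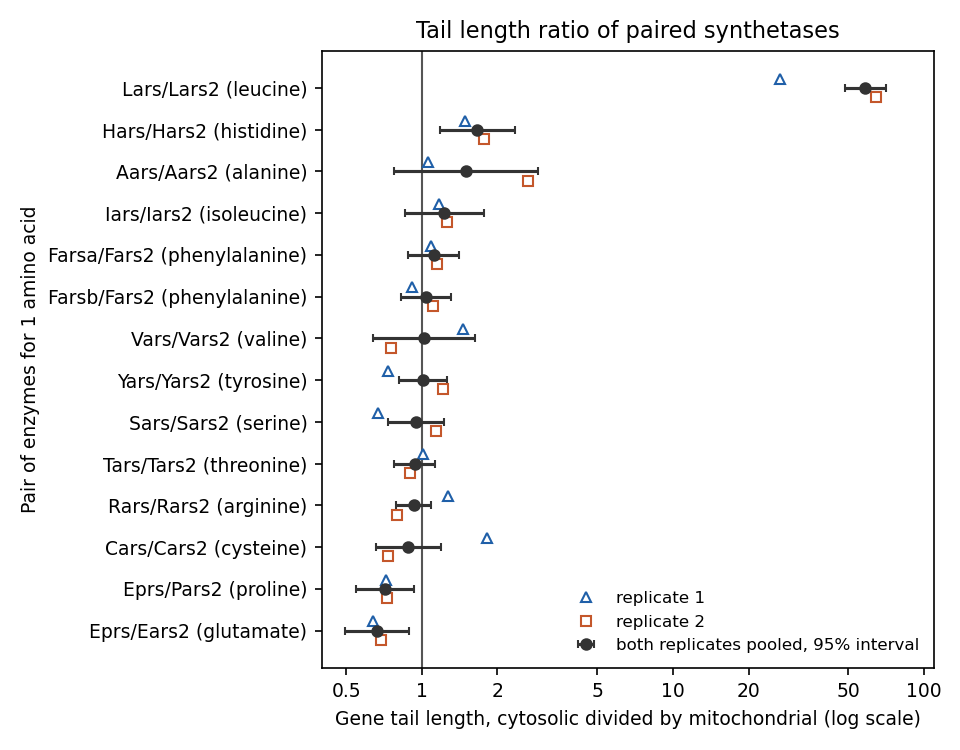
Ratio of the gene tail length of the cytosolic to that of the mitochondrial enzyme for 14 pairs, on a log axis. Points are both replicates pooled with 95% intervals for counting error, triangles and squares are replicates 1 and 2, and the line marks 1. Lars/Lars2 (58.4) and Hars/Hars2 (1.67) lie to the right of 1 with their intervals, Eprs/Pars2 (0.712) and Eprs/Ears2 (0.661) to the left, and the other 10 intervals hold 1.

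Bases other than A were found in 12.0% of cytosolic synthetase tails in replicate 1 and 9.37% in replicate 2, beside 12.2% and 9.55% of all nuclear tails. The class as a whole was thus close to all nuclear genes. Its genes ran from 6.06% in Wars, on 66 tails, to 18.1% in Kars. Dars had 8 of 138 and 18 of 259 tails with a non-A base, 6.55% pooled (4.51 to 9.42%). Kars had a non-A base in 36 of 170 and 44 of 272 tails, and its pooled share of 18.1% had an interval of 14.8 to 22.0%, the highest of the cytosolic genes. In 54 of these 80 Kars tails the first base, next to the body of the transcript, was a T, as in the last tail printed above.

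Such a first T was found in 13.5% of Kars tails in replicate 1 and 11.4% in replicate 2, 12.2% pooled (9.49 to 15.6%). It was found in 12 of the 4321 tails of the other 19 cytosolic genes, or 0.278%, and in 0.617% of all nuclear tails. Iars had 3 of 141, Nars 5 of 362, and Rars and Tars 2 each, while none was read in the 439 tails of Aars or the 411 of Gars. Every non-A first base in the nuclear tails, 4329 in all, was a T. Among tails that began in A, 26 of 388 Kars tails, or 6.70%, held a non-A base, beside 9.91% over all nuclear genes. Whether this T belongs to the transcript body or to the tail was not tested, and counting only the A bases left the Kars gene tail at 87.9 nt.

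A T at the last base, the mark that 3′ uridylation leaves, was read in 4.29% and 1.98% of cytosolic tails in replicates 1 and 2 (3.13 ± 1.63%, SD, n = 2), beside 3.93% and 2.58% of all nuclear tails. The mitochondrial class had 5.49% and 2.27%, from 10 tails in each replicate. These shares differed between the replicates by more than between the classes. By length, the cytosolic tails of 6 to 30 nt ended in T most often, in 39 of 341 or 11.4% (8.48 to 15.3%), and those of 31 to 60 nt did so in 2.66%. Over all nuclear genes the shares were 15.2% and 3.03%.

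Within the cytosolic class the share of tails ending in T was lower for the genes of the multi-synthetase complex than for the others in both replicates, a difference that 2 replicates do not allow to be tested. It was 3.14% against 5.25% in replicate 1 and 1.48% against 2.40% in replicate 2. The difference, −1.51 ± 0.843 percentage points (SD, n = 2), rested on 45 tails of 2181 and 88 of 2582. Tars had the highest share of the cytosolic genes, with 8 of 118 and 10 of 219 tails, 5.34% pooled, and its printed tail ends in TT. Qars had 0 of 62 and 1 of 159, and Kars 2 of 170 and 3 of 272. The genes of the 2 groups overlapped. Pooled shares ran from 0.452% in Qars to 4.14% in Lars within the complex, and from 1.44% in Farsb to 5.34% in Tars outside it. Of all member tails, 32 ended in 2 or more T.

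The gene tails of the cytosolic class were also set against depth and transcript length. Spearman's rho of the gene tail was −0.239 with the number of transcripts and −0.104 with the longest annotated transcript over the 20 genes. For all 7146 genes rho with transcript length was −0.390. Both are descriptions over genes that share the same 2 libraries.

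Other genes of tRNA charging were read alongside. Of a list of 13, 12 had transcripts and 8 a gene value, and by the same interval rule 0 of the 8 were called, beside 21.2% of all genes above and 17.3% below. Aimp1, Aimp2 and Eef1e1, the scaffold proteins of the multi-synthetase complex, had 72.4, 74.1 and 76.9 nt on 132, 73 and 95 transcripts. Their replicates were close, at 71.7 and 72.7 nt for Aimp1, 75.2 and 73.5 nt for Aimp2 and 77.1 and 76.8 nt for Eef1e1. Qrsl1 and Gatb, subunits of the amidotransferase that makes mitochondrial glutaminyl-tRNA, had 55.8 nt on 27 transcripts and 83.2 nt on 12. Pstk, a kinase of the selenocysteine route, and Dtd2, a deacylase that removes mischarged amino acids, had 96.8 and 93.4 nt on 17 transcripts each. Prorsd1, related to the editing domain of proline enzymes, had the lowest value of the list, 43.6 nt over 3 transcripts and 48.6 nt over 8, with a wide pooled interval of 23.4 to 95.2 nt. Dtd1, Gatc, Mtfmt and Sepsecs had 4, 6, 5 and 7 transcripts, and Aarsd1 had 0.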

How the data were processed

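PAIso-seq was used to measure poly(A) tails in 1 sample of wild-type 24h-EpiLCs with 2 barcoded replicates. Per the study's methods and the submitters' processing notes, the authors made circular consensus reads, split them by barcode, mapped them to mm10 with minimap2 2.17, removed repetitive reads, took the clipped 3′ bases as the tail, extended them into A runs of the alignment, filtered out sequences whose first 8 bases held under 4 A, left out reads without a tail and assigned genes with featureCounts 2.0.1. The table deposited by the authors gives per read the barcode, gene, number of passes, tail base counts and tail sequence, with no normalization. Tails of 0 nt are therefore not represented. Of 5176 member tails of at least 8 nt, 0 held fewer than 4 A among the first 8 bases, whereas 196 member tails, 132 of them from Lars2, were shorter than 4 nt, so the filter had not removed tails too short to meet it.

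Tail length was the number of all tail bases. Reads with at least 7 passes were used, which left out 490 synthetase reads (8.34%). Genes were placed with GENCODE vM21 (GRCm38), where Mars1 is named Mars. A gene tail was the geometric mean over transcripts, for genes with at least 10. Intervals at 95% came from the SD of log lengths, and for shares from Wilson's method. A gene was called above or below the median of all nuclear genes when its interval left the median out, and pairs or replicates when the interval of the ratio left out 1. With 1 sample there was no contrast between groups, and no p-value was computed. Gene tails in both replicates were given for the 3 longest and 3 shortest genes of each class and the 5 with the most transcripts. Intervals and shares were given for part of them. The members, lists and tests were chosen with earlier results of these data known. One more gene first placed on the list of other genes of tRNA charging is not reported here. The positions of non-A bases, the split of the mitochondrial enzymes by fold without Lars2 and the medians of all genes under each setting were added after the values were seen. The scripts were tested on simulated tails. Alternatives changed the pass filter, the shortest tail, the summary per gene, the transcript minimum, the replicates, the wells and the genes in a class. The software was scipy 1.17.1 (normal quantiles), pandas 2.3.3, numpy 2.4.6 and, for plots, matplotlib 3.10.9, under Python 3.11.15.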

Additional observations from a re-analysis of the deposited data

How the results depend on the processing

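Of 15 settings, 14 were planned and 1, leaving out Lars2, was chosen after seeing the data. With tails of at least 6 nt or at least 15 nt, the median gene tail was 81.1 or 81.9 nt in the cytosolic and 80.2 or 82.4 nt in the mitochondrial class, and the share over 90 nt 49.7 or 49.96% and 48.4 or 49.2%; the median of all genes rose likewise, to 81.2 and 83.1 nt. The arithmetic mean gave 94.3 and 92.2 nt and the median over transcripts 87 and 89 nt for the 2 classes (all genes 93.8 and 89 nt), and the latter put the complex 8.25 nt above the other cytosolic genes. With at least 20 transcripts per gene the mitochondrial median was 70.5 nt, and with at least 10 in each replicate 67.8 nt, 8.60 nt below the cytosolic one. Leaving out Lars2 put the mitochondrial share over 90 nt at 47.7% and that of 1 to 5 nt at 1.88%.

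Leaving out either replicate gave 3.49 to 11.4 nt for the cytosolic minus the mitochondrial median, 77.1 to 79.1 nt and 67.7 to 73.6 nt for the 2 medians, −1.56 to 1.91 nt for the complex minus the other cytosolic genes, 34.5 to 44.0% for mitochondrial tails over 90 nt, 6.04 to 30.0% for those of 1 to 5 nt and 2.27 to 5.49% for those ending in T. The cytosolic minus the mitochondrial median also turned sign with at least 15 passes (−1.13 nt), tails of at least 15 nt (−0.409 nt) and the median over transcripts (−2 nt). The other settings moved no class value by more than the spread between replicates. No paired analysis was possible because the single group has no partner. Depth limits the mitochondrial genes, 6 of which had a value but under 10 transcripts in a replicate.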
